A study of Mus musculus with 8 samples.

Results

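The 40 genes of the Atf4 integrated stress response and the unfolded protein response were examined in 2 luminal fractions sorted from the mammary gland of wild type C57BL/6J mice. The members were taken by symbol from 24594 listed genes, and all 40 were among the 12816 genes that passed the filter on low counts. They fall into 6 genes of the eIF2 arm, 17 of the Atf4 branch and 17 of the Xbp1 and Atf6 branches. RNA-Seq compared luminal progenitors (LP, c-Kit high) with luminal mature cells (c-Kit low), with 4 libraries in each fraction and 8 in all. Every library came from wild type mice without treatment, aged between 12 and 20 weeks. Cells were freed with collagenase, hyaluronidase, trypsin and dispase and sorted, per the labels, on EpCAM, CD49f, c-Kit and CD14, while the study describes the split into LP and mature cells by c-Kit, and cDNA was amplified from 500 pg of RNA. The number of biological replicates given in the methods differs from the 4 libraries held per fraction, and each LP library shares a sample number with a mature library without a statement of what it marks. The sources thus do not settle whether the 4 libraries came from separate animals, and the p-values measure the spread between these libraries.

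In the integrated stress response, kinases that sense misfolded protein, lack of amino acids or lack of heme phosphorylate the translation factor eIF2, which lowers protein synthesis in general while the mRNA of the transcription factor Atf4 is translated better. Atf4 then activates genes for amino acid synthesis and transport and, with Ddit3 (CHOP), genes of the stress response. The unfolded protein response of the endoplasmic reticulum (ER) uses one of these kinases together with Ern1 (IRE1), which splices the Xbp1 mRNA, and Atf6, which is cut to release a transcription factor. Both raise the genes for ER chaperones and for ER-associated degradation, a set of genes that secretory epithelia need when they make milk protein.

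Sequences recognised by these factors were looked for in the 250 bases before each listed start of a gene. The starts came from the RefSeq table for build GRCm38.p6, which held 34 of the 40 members. Entries were not found for Ppp1r15b, Aldh1l2, Atf6, Manf, Hyou1 and Derl1. The C/EBP-ATF composite element (CARE, TGATGNAA in either orientation) stood before 5 of the 16 matched genes of the Atf4 branch (Asns, Chac1, Nupr1, Pycr1 and Vldlr) and before Herpud1. It was present before at least 1 listed start of 3.91% of the 27025 genes in the table. The ER stress element (ERSE, CCAAT and CCACG with 9 bases between them, either orientation) stood before 5 of the 10 matched genes of ER folding and degradation (Calr, Canx, Creld2, Derl3 and Syvn1), against 0.13% of all genes in the table. ERSE-II (ATTGG and CCACG with 1 base between them) was found before Herpud1, against 0.037% of all genes, and the UPRE core TGACGTGG, present in 0.603% of all genes, was found before none of the matched members. No motif overlapped another in these windows.

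The windows below hold the element in capitals, with up to 30 bases on either side, and lie wholly before a listed start of the gene. For Vldlr this is the second listed start, so its window lies inside the span of the gene. Nupr1 and Vldlr are shown because they carry the Atf4 element and were called in opposite directions. Asns and Chac1 carry it and were not called, and Herpud1, Calr and Derl3 stand for the ER genes; these 5 were added after their values were seen.
Nupr1, chr7:126625543-126625610, minus strand: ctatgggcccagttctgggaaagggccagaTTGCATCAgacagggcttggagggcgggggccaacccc
Vldlr, chr19:27216790-27216857, plus strand: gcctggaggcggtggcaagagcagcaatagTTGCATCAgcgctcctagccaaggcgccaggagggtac
Asns, chr6:7693210-7693262, minus strand: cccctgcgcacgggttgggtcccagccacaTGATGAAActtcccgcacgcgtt
Chac1, chr2:119351019-119351086, plus strand: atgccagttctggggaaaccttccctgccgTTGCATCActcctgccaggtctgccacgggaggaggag
Herpud1, chr8:94386287-94386417, plus strand: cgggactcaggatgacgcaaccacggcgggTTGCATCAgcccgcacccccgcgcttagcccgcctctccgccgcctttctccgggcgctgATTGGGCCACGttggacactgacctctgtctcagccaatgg
Calr, chr8:84847045-84847123, minus strand: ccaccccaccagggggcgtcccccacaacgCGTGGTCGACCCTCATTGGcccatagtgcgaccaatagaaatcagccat
Derl3, chr10:75893212-75893290, plus strand: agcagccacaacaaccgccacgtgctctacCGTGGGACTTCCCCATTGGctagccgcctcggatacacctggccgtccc
These are matches of letters, and binding of a factor was not measured.

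Total counts ranged from 4410049 to 7791593 per library. Progenitor genes (Kit, Elf5, Csn3, Ltf) were higher in LP for 4 of 5, and hormone-sensing genes (such as Prlr, Pgr and Cited1) were higher in mature cells for 6 of 6. Levels are given as CPM, the counts of a gene scaled by the size of its library. Summed CPM of 8 basal markers was 4.02 to 17.97 in LP and 8.86 to 51.1 in mature libraries. None of the 4 tested was called, and they differed in direction. Oxtr had 8.28, 11.9, 8.30 and 1.11 CPM in LP libraries 1 to 4 and was at most 3.18 CPM in mature libraries. Krt14 and Acta2 stood at 18.6 and 16.6 CPM in mature library 3 and at 7.84 and 10.2 CPM in mature library 4. Summed CPM of 6 leukocyte and of 4 endothelial markers was at most 9.15 and 8.48 in any library, with Cd3e, Tyrobp and Kdr at 0. Of 6 fibroblast markers none was called, and their sum was 7.49 to 39.1 in LP and 21.8 to 174 in mature libraries, most of the latter being Dcn in mature libraries 1 and 2. Of 3 luminal keratin and adhesion markers, Krt8 (log2 fold change -1.24) and Krt18 (-1.59) were higher in mature cells, and Epcam stood at 1595 to 2570 CPM in all libraries. Libraries 1 and 2 were the most alike in each fraction. Their counts differed by a chi-square per degree of freedom of 11.95 in LP and 14.7 in mature cells, while other pairs gave 20.5 to 29.3 in LP and 50.1 to 89 in mature cells.

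Of the 40 members, 8 were higher in mature cells and 4 were higher in LP at an adjusted p under 0.05 (edgeR's quasi-likelihood test, Benjamini-Hochberg over all 12816 genes), and 28 were not called. Of all tested genes 13.8% were called higher in mature cells, 10.9% higher in LP and 24.7% in either direction. The median log2 fold change (LP over mature) of the members was -0.41, beside -0.00 over all tested genes, and 30 members had a negative value and 10 a positive one. In 16 of the 40 the lowest library of one fraction lay above the highest of the other, and 29.5% of all tested genes did so. Counts in bulk RNA cannot separate a change of RNA per cell from a change in the share of cells that hold it. The study drew gene sets for the fractions from these same libraries that include Atf4, Ddit3, Ddit4, Nupr1 and Ppp1r15a for mature cells and Xbp1 for LP, so the directions of these 6 members are not independent of that choice.

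**Figure D1:**
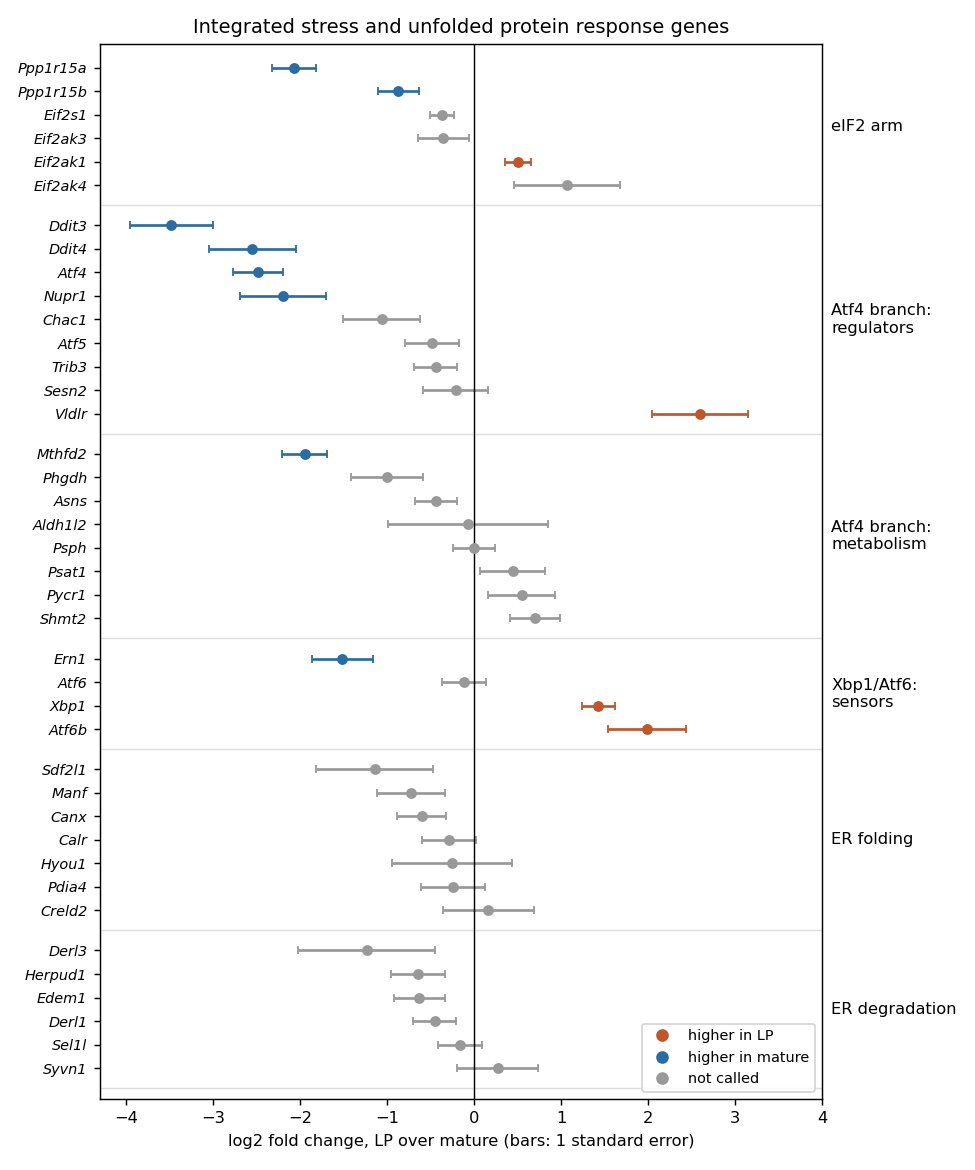
Log2 fold change (LP over mature) of the 40 members with 1 standard error, grouped by role; blue points were called higher in mature cells, orange points higher in LP and grey points were not called. The called genes of the Atf4 branch lie mostly left of 0, with Ddit3 at -3.48, while the 13 genes of ER folding and degradation are all grey.

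Atf4 itself (chr15:80255184-80257545, GRCm38) was higher in mature cells. It stood at 78.7, 50.6, 60.9 and 44.0 CPM in LP libraries 1 to 4 and at 382, 467, 252 and 211 CPM in mature libraries 1 to 4. The fractions did not overlap, and mature library 2 was the highest and LP library 4 the lowest. The log2 fold change (LP over mature) was -2.49 (SE 0.285, adjusted p = 0.000432), a 5.60-fold higher level in mature cells. Per length, Atf4 rose from 24.8 RPKM (CPM per kilobase of exon) in LP to 139 RPKM in mature cells. The call rests on mRNA, and the level of Atf4 protein, which depends on translation, was not measured.

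Ddit3 (chr10:127290793-127296291), the transcription factor CHOP that Atf4 activates under lasting stress, showed the largest fold among the members. Its CPM was 30.5, 19.0, 29.4 and 23.4 in LP and 413, 486, 120 and 125 in mature libraries 1 to 4. All LP libraries were close together, while mature libraries 1 and 2 stood far above mature libraries 3 and 4, which were still above every LP library. The log2 fold change was -3.48 (SE 0.477, adjusted p = 0.000859), or 11.2-fold higher in mature cells. GENCODE has a second gene model, also named Ddit3, which shares 6.13% of the exon bases of the member.

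Nupr1, a small stress-induced nuclear protein, and Ddit4 (REDD1), an inhibitor of mTORC1, moved the same way. Nupr1 stood at 1099, 964, 488 and 712 CPM in LP and at 5276, 6421, 1227 and 2081 CPM in mature libraries (log2 fold change -2.20, SE 0.492, adjusted p = 0.00888). It had the highest level per length of all members in mature cells, 1492 RPKM beside 324 RPKM in LP, and its LP and mature ranges came close at LP library 1 and mature library 3. Ddit4 was at 37.8, 28.3, 84.5 and 46.3 CPM in LP and at 456, 430, 161 and 106 CPM in mature libraries (log2 fold change -2.55, SE 0.499, adjusted p = 0.00469). Again mature libraries 1 and 2 were the highest, and LP library 3 was the highest of its fraction.

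Vldlr, the very low density lipoprotein receptor and a target of Atf4 under ER stress, went the other way. It had 53.9, 56.6, 74.9 and 46.9 CPM in LP and 1.12, 10.2, 10.4 and 16.7 CPM in mature libraries. Mature library 1 was nearly without reads of the gene, at 8 counts, and no mature library reached the lowest LP library. The log2 fold change was 2.60 (SE 0.550, adjusted p = 0.0069), or 6.04-fold higher in LP. Its CARE lies 200 to 193 bases before the second start listed for the gene, and that of Nupr1 110 to 103 bases before its start.

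The other 4 regulators of the Atf4 branch were not called. Trib3, a pseudokinase that binds Akt, had a log2 fold change of -0.44 (adjusted p = 0.218). Atf5, whose mRNA is translated like that of Atf4, had -0.49 (adjusted p = 0.292) and Sesn2, a leucine sensor upstream of mTORC1, -0.21 (adjusted p = 0.72). Chac1, which degrades glutathione, was low, at 2.49 to 4.44 CPM in LP and 4.73 to 8.58 CPM in mature libraries. Its ranges did not overlap, but with a log2 fold change of -1.06 and a standard error of 0.442 it missed the threshold (adjusted p = 0.105).

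Among the 8 genes of amino acid and one-carbon metabolism, Mthfd2 was called and the other 7 were not, and the median log2 fold change was -0.04. The shares over all tested genes were 13.8% called higher in mature cells and 24.7% called in either direction. Mthfd2, a mitochondrial enzyme of the folate cycle, had 16.4, 10.9, 13.6 and 15.3 CPM in LP and 52.9, 75.4, 36.8 and 52.4 CPM in mature libraries. Every mature library lay above every LP library (log2 fold change -1.95, SE 0.258, adjusted p = 0.000742). Shmt2, the mitochondrial enzyme that feeds the same cycle from serine, had the opposite sign, with 24.2 to 34.5 CPM in LP and 10.999 to 24.4 CPM in mature libraries and a log2 fold change of 0.70 (adjusted p = 0.0979).

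Of the 3 enzymes that make serine, Phgdh, the entry step, had -1.0015 (adjusted p = 0.103), Psat1 0.44 (adjusted p = 0.429) and Psph, the last step, -0.01 (adjusted p = 0.988). Phgdh did not overlap between fractions, but 47.3% of its 51-base stretches, the length of the reads, also occur in other genes, mostly processed pseudogenes, so its count is uncertain. Asns, asparagine synthetase and the textbook Atf4 target, had 79.1 to 132 CPM in LP and 104 to 203 CPM in mature libraries (log2 fold change -0.44, adjusted p = 0.209). Pycr1, of proline synthesis, had 0.54 (adjusted p = 0.335) without overlap between the fractions. Aldh1l2, a mitochondrial folate enzyme, was at most 5.78 CPM in any library, with a log2 fold change of -0.07 (SE 0.922, adjusted p = 0.966), and 14.1% of its exon bases are shared with a gene on the opposite strand. No source used here says whether counting used the strand.

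**Figure D2:**
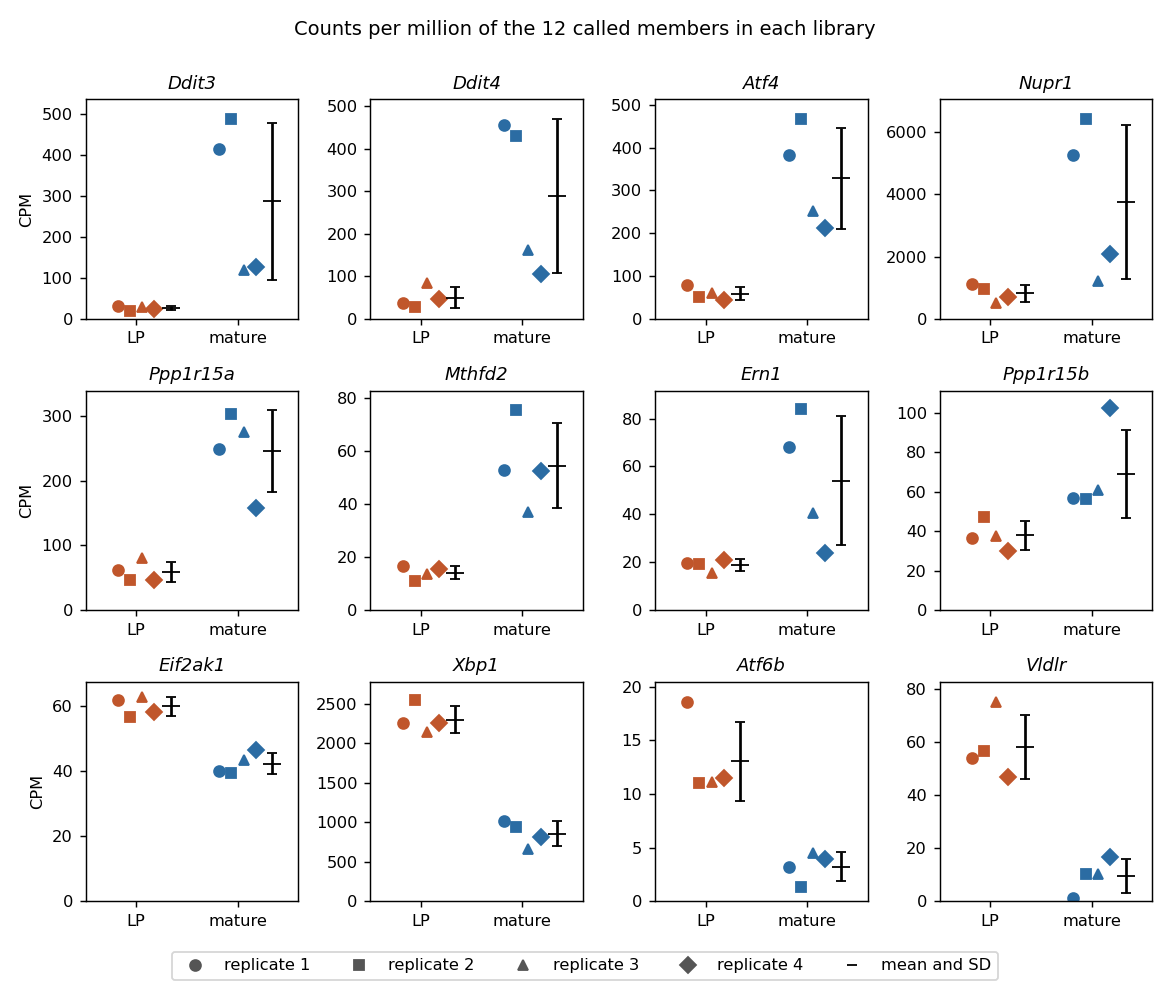
CPM of the 12 called members in each library on linear axes that start at 0, ordered from the most negative to the most positive log2 fold change (LP over mature); symbols mark the replicate number, and the bar gives the mean and SD of the 4 libraries. The fractions do not overlap in any of the 12, and mature libraries 1 and 2 are the 2 highest for Ddit3, Ddit4, Atf4, Nupr1, Mthfd2 and Ern1.

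In the eIF2 arm 2 of 6 genes were called higher in mature cells and 1 higher in LP, with a median log2 fold change of -0.36. Over all tested genes 13.8% were called higher in mature cells and 10.9% higher in LP. The 2 genes of the arm higher in mature cells were the targeting subunits that bring protein phosphatase 1 to eIF2 and so end the response. Ppp1r15a (GADD34), the inducible subunit and itself a target of Atf4, had 61.1, 46.3, 80.2 and 47.2 CPM in LP and 250, 303, 276 and 157 CPM in mature libraries. All 4 mature libraries were well above LP (log2 fold change -2.07, SE 0.250, adjusted p = 0.000502).

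Ppp1r15b (CReP), the constitutive subunit, had 36.7, 47.3, 37.4 and 29.7 CPM in LP and 56.5, 56.5, 61.1 and 102 CPM in mature libraries. The fractions did not overlap, and mature library 4 stood apart above the other mature libraries. The log2 fold change was -0.87 (SE 0.240, adjusted p = 0.0228), and it was -0.59 with an adjusted p of 0.0637 without mature library 4. The call was also lost without LP library 1, 3 or 4 (adjusted p = 0.0609, 0.0541 and 0.0679). With the replicate number as a block it was lost as well (adjusted p = 0.056). A gene on the opposite strand covers 11.4% of its exon bases.

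The kinases differed among themselves. Eif2ak1 (HRI), the kinase that senses heme and mitochondrial stress, had 61.6, 56.5, 62.8 and 58.1 CPM in LP and 39.8, 39.4, 43.3 and 46.3 CPM in mature libraries. The gap was small but the libraries of each fraction were close together (log2 fold change 0.50, SE 0.153, adjusted p = 0.0352). The call was lost without any single LP library and without mature library 1 or 2, with adjusted p from 0.0646 to 0.0912. With the replicate number as a block it was lost as well (adjusted p = 0.063). For Eif2ak1, 8.59% of the exon bases are shared with Aimp2 on the opposite strand.

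Eif2ak3 (PERK), the kinase in the ER membrane, had 34.1, 28.3, 41.3 and 28.6 CPM in LP and 43.9, 41.8, 61.6 and 21.8 CPM in mature libraries. The fractions overlapped, since mature library 4 was the lowest of all (log2 fold change -0.35, SE 0.293, adjusted p = 0.414). Eif2ak4 (GCN2), the amino acid sensor, was low, at 6.76 to 11.8 CPM in LP and 0.525 to 7.22 CPM in mature libraries (log2 fold change 1.07, SE 0.606, adjusted p = 0.227). Eif2s1, the eIF2 subunit that the kinases phosphorylate, had 133 to 151 CPM in LP and 156 to 200 CPM in mature libraries (log2 fold change -0.37, adjusted p = 0.0772). Its ranges did not overlap but the difference did not pass the threshold.

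In the Xbp1 and Atf6 branches 3 of 17 genes were called, beside 24.7% of all tested genes. All 3 were sensors or transcription factors. Xbp1 (chr11:5520641-5525993), the transcription factor that Ern1 activates by splicing, was higher in LP. It had 2259, 2548, 2147 and 2256 CPM in LP and 1015, 939, 662 and 818 CPM in mature libraries. The lowest LP library was above the highest mature library by a wide margin, and the LP libraries were close together. The log2 fold change was 1.42 (SE 0.188, adjusted p = 0.000742), or 2.68-fold higher in LP. At 709 RPKM Xbp1 had the highest level per length of all members in LP, beside 264 RPKM in mature cells. The counts hold spliced and unspliced Xbp1 mRNA together, so the active form was not measured.

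Ern1, the kinase and RNase that splices Xbp1, was higher in mature cells, the opposite direction. Its CPM was 19.6, 19.1, 15.4 and 21.1 in LP and 67.9, 83.8, 40.4 and 23.8 in mature libraries. Mature library 4 was just above the highest LP library and the other mature libraries were further off (log2 fold change -1.51, SE 0.351, adjusted p = 0.0105). Its level was low beside that of Xbp1, at 2.302 RPKM in LP and 6.61 RPKM in mature cells.

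Atf6b, the paralogue of Atf6, had 18.6, 11.1, 11.1 and 11.5 CPM in LP and 3.23, 1.31, 4.48 and 3.92 CPM in mature libraries. The fractions did not overlap, and LP library 1 was the highest (log2 fold change 1.99, SE 0.450, adjusted p = 0.00944). Atf6 had 56.5, 37.7, 41.3 and 53.4 CPM in LP and 60.05, 67.8, 46.2 and 31.5 CPM in mature libraries. Its LP range lay inside its wider mature range (log2 fold change -0.12, SE 0.253, adjusted p = 0.773).

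None of the 13 genes of ER folding and ER-associated degradation was called in the main fit by edgeR's quasi-likelihood test. Adjusted p ran from 0.141 to 0.852, and all 13 overlapped between the fractions. For comparison, 24.7% of all tested genes were called in either direction and 29.5% did not overlap between the fractions. With the replicate number as a block Herpud1 was called (adjusted p = 0.0144), and without mature library 4 Edem1 was called (adjusted p = 0.0262). In the main fit the median log2 fold change of the 13 genes was -0.45 and 11 of 13 were negative. Canx and Calr, the lectin chaperones that hold glycoproteins during folding, were abundant. Canx had 1615, 1555, 1153 and 1484 CPM in LP and 2678, 3185, 1623 and 1337 CPM in mature libraries (log2 fold change -0.60, SE 0.279, adjusted p = 0.141). Calr had 581, 663, 424 and 659 CPM in LP and 860, 1103, 477 and 409 CPM in mature libraries (-0.29, SE 0.308, adjusted p = 0.532). In both genes mature libraries 1 and 2 were above all LP libraries and mature library 4 was within or below them.

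The spread within mature cells was wide for several ER chaperone genes. Sdf2l1, a component of the ER chaperone complex, had 187, 255, 79.7 and 148 CPM in LP and 558, 758, 83.9 and 82.7 CPM in mature libraries (-1.15, SE 0.674, adjusted p = 0.244). Hyou1, the exchange factor and chaperone GRP170, had 9.87, 15.2, 16.1 and 10.3 CPM in LP and 28.4, 27.3, 3.18 and 2.86 CPM in mature libraries (-0.25, SE 0.692, adjusted p = 0.823). Creld2, an ER stress-inducible protein with disulfide isomerase activity, had 175, 244, 106 and 143 CPM in LP and 190, 299, 68.3 and 41.6 CPM in mature libraries (0.16, SE 0.521, adjusted p = 0.852). For these 3 genes mature libraries 3 and 4 lay within or below the LP range. The highest mature library was 9.16 times the lowest for Sdf2l1, 9.92 times for Hyou1 and 7.19 times for Creld2, while in LP the same ratios were 3.20, 1.63 and 2.303 times.

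Manf, a secreted protein that protects against ER stress, had a log2 fold change of -0.73 (adjusted p = 0.201), and Pdia4, a protein disulfide isomerase, -0.25 (adjusted p = 0.668). In degradation, Herpud1, which organises the ubiquitin ligase complex, had 276, 351, 154 and 195 CPM in LP and 449, 542, 244 and 295 CPM in mature libraries (-0.65, SE 0.308, adjusted p = 0.15). Edem1, which directs misfolded glycoproteins to disposal, had -0.63 (adjusted p = 0.144) and Derl1, a channel component, -0.45 (adjusted p = 0.207). The ligase Syvn1 (HRD1) and its partner Sel1l had 0.27 (adjusted p = 0.713) and -0.17 (adjusted p = 0.671). Derl3 was low, at 1.66 to 8.63 CPM in LP and 1.36 to 21.9 CPM in mature libraries (-1.23, SE 0.787, adjusted p = 0.284). The size of these folds depended on single mature libraries. Derl3 was at -0.52 without mature library 1, and without mature library 2 the log2 fold change was -0.50 for Sdf2l1, -0.34 for Manf, -0.35 for Canx, -0.41 for Herpud1, -0.39 for Edem1 and -0.18 for Derl1.

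In all 13 of these genes mature libraries 1 and 2 were both above mature libraries 3 and 4, an order seen in 21.2% of all tested genes, and the order was looked at after the values were seen. Within the mature fraction 26 of all 40 members had this order. It was present in 9 of the 17 genes of the Atf4 branch, 1 of the 6 of the eIF2 arm and 21 of 31 further ER genes outside the 40. In LP 6 of the 13 had it (20.5% of all tested genes). The coefficient of variation was larger in mature cells than in LP for all 13, for 36 of the 40 members and for 65.7% of all tested genes. Its median over the members was 19.9% in LP and 40.9% in mature cells, against 23.4% and 31.5% over all tested genes. Mature libraries 1 and 2 also held the most Dcn (132 and 154 CPM, beside 14.1 and 20.6 CPM in mature libraries 3 and 4), and the part of these differences between libraries in the result was not tested.

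**Figure D3:**
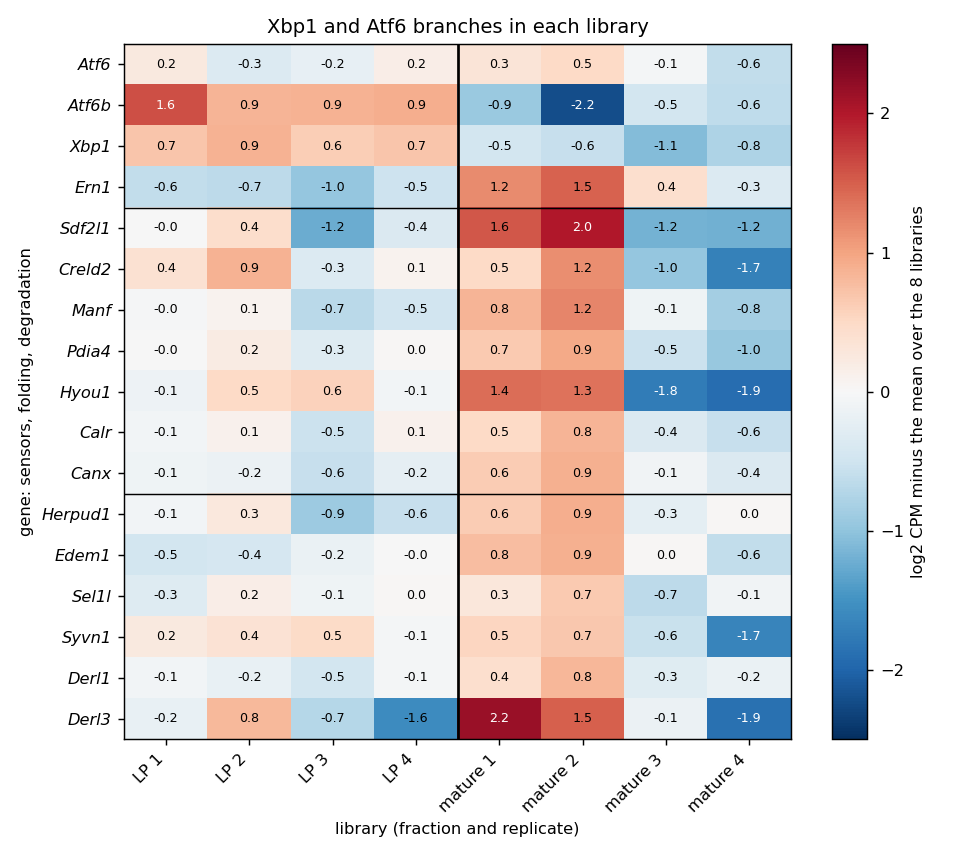
Log2 CPM of the 17 genes of the Xbp1 and Atf6 branches in each of the 8 libraries, minus the mean of the gene over the libraries (red above, blue below it). Xbp1 and Atf6b are above their mean in all 4 LP libraries, and the 13 genes of folding and degradation are above it in mature libraries 1 and 2.

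Other genes of the same pathways were examined from lists outside the 40. Over all tested genes 13.8% were called higher in mature cells, 10.9% higher in LP and 24.7% in either direction. Of 8 further genes of eIF2 and its exchange factor, 3 were higher in LP and 1 was higher in mature cells. Eif2ak2 (PKR), the kinase that senses double-stranded RNA, was higher in LP (log2 fold change 1.86, adjusted p = 0.00257), as were the eIF2B subunits Eif2b4 (0.73, adjusted p = 0.0297) and Eif2b5 (0.53, adjusted p = 0.0496). The eIF2 subunit Eif2s2 was higher in mature cells (-1.07, adjusted p = 0.00116).

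Of 24 further Atf4 targets and partners 21 were tested, and 8 of them were higher in mature cells and 2 in LP, with a median log2 fold change of -1.05. Gadd45a, a growth arrest gene (-2.27, adjusted p = 0.000649), Atf3, a transcription factor of the same network (-3.12, adjusted p = 0.000859), and Aldh18a1, of proline synthesis (-1.85, adjusted p = 0.00118), were higher in mature cells. Cebpb, a partner of Atf4 at the composite element, was higher in LP (1.28, adjusted p = 0.00278). Of the 18 tRNA synthetases, many of them known Atf4 targets, 3 were higher in mature cells and 2 in LP, with a median of -0.19. The share called over all tested genes, to be set beside both lists, was 24.7%. Yars (-1.02, adjusted p = 0.00112) and Kars (-0.59, adjusted p = 0.0162) were higher in mature cells, and Gars (1.18, adjusted p = 0.000808) and Hars (0.77, adjusted p = 0.0174) in LP.

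Of 32 further ER genes 31 were tested, and 5 were higher in mature cells and 3 in LP, with a median log2 fold change of -0.35. Over all tested genes 24.7% were called in either direction. Hspa5 (BiP), the main ER chaperone, had 4890, 4989, 3201 and 3826 CPM in LP and 15040, 19960, 6345 and 3625 CPM in mature libraries. It passed the threshold narrowly (-1.41, SE 0.464, adjusted p = 0.0479), and mature library 4 lay inside the LP range. The oxidase Ero1a, which drives disulfide bond formation and is a known target of Ddit3, was higher in mature cells (-3.48, adjusted p = 0.00246), as were its paralogue Ero1b (-1.19, adjusted p = 0.0129) and the folding sensor Uggt1 (-1.03, adjusted p = 0.00485). Mydgf, a secreted growth factor, was higher in LP (1.13, adjusted p = 0.00244).

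**Figure D4:**
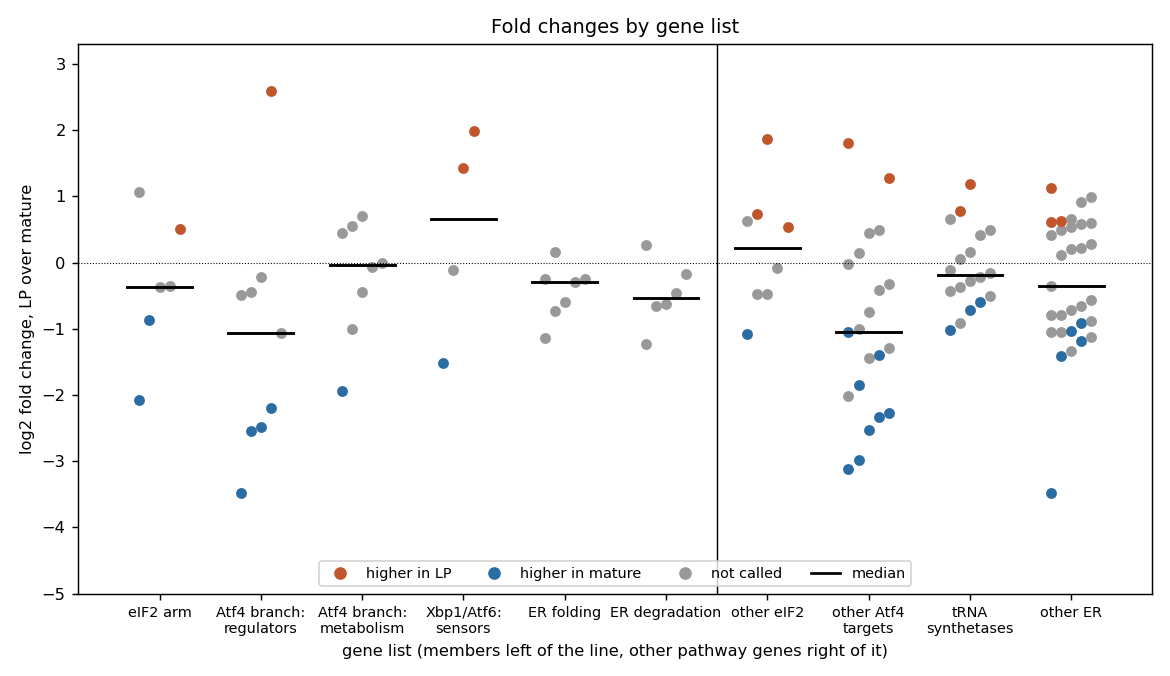
Log2 fold change (LP over mature) of each tested gene by list, with the 6 lists of members on the left, the 4 lists of other pathway genes on the right and the median of each list as a bar; colours as in the plot of the 40 members. The medians of the Atf4 regulators and of the other Atf4 targets are at -1.06 and -1.05, while those of the metabolic genes and the tRNA synthetases are at -0.04 and -0.19.

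Genes known to rise when tissue is dissociated were mostly higher in mature cells, the direction of most called Atf4 regulators. Of 15 such immediate-early and heat-shock genes 14 were tested. Against shares of 13.8% and 10.9% over all tested genes, 9 were higher in mature cells and 1, Ier2, in LP. Their summed CPM was 2114 to 3519 in LP and 7411 to 30998 in mature libraries, without overlap, with the highest sum in mature library 3, where Hspa1a reached 8253 CPM. In the other mature libraries the sum was 7411 to 10530 CPM. Of the 14, 3 (Dusp1, Ier3 and Junb) had mature libraries 1 and 2 both above mature libraries 3 and 4, beside 21.2% of all tested genes. The 4 Atf4 regulators called higher in mature cells had that order too. In mature library 3 Atf4, Ddit3, Nupr1 and Ddit4 stood at 252, 120, 1227 and 161 CPM, each below mature libraries 1 and 2. Ppp1r15a and Atf3, also higher in mature cells, did not have it. Their CPM was 276 and 348 in mature library 3 beside 250 and 300 in mature library 1. Atf3 is known from the response to dissociation, and the part of the dissociation genes in the result was not tested. Of the 5 progenitor markers, 4 were highest within the mature fraction in library 3 (Aldh1a3 was highest in library 4), with Kit at 179 CPM beside 41.2 to 73.5 CPM in the other mature libraries and 522 to 832 CPM in LP.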

How the data were processed

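Expression was measured by single-end RNA-Seq (51 bases) in 4 LP and 4 mature libraries. Per the labels, the submitters' processing notes name cutadapt 4.2 and Bowtie2 2.3.5.1 and the build mm10 among others, and the authors trimmed and aligned the reads; the counting program, its annotation and its use of strand are not given in the sources used here. The deposited values were raw counts per Entrez gene, and 24570 of 24594 identifiers matched a RefSeq symbol.

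Counts were fitted with edgeR 4.0.16 (R 4.3.3) by the quasi-likelihood test with TMM factors, two-sided, after the default filter on low counts by fraction, over all 8 libraries with fraction alone in the model, and p-values were adjusted by Benjamini-Hochberg over 12816 genes. A call is an adjusted p under 0.05. CPM used the filtered, TMM-scaled library sizes with no added count, and RPKM used GENCODE M21 exon lengths. The fit was tested on simulated data. At 4410049 to 7791593 counts per library, 1 CPM is about 4 to 8 reads, and counting error adds to the values of members under 10 CPM. No 2 libraries of a fraction were alike within sampling noise. The 40 members, the pathway lists and the tests were chosen with earlier results of these data known. All 40 members could be named, those called and Atf4, Xbp1, Atf6, Ern1 and Eif2ak3 with every library, and from each other pathway list up to 4 called genes of smallest p, plus Hspa5; marker genes were named after their values were seen. Alternatives were other scalings, DESeq2 1.42.0, edgeR's likelihood ratio test, other filters, thinning, a replicate block and leaving out each library. Promoter sequences came from RefSeq (GRCm38.p6); protein sequences were not used here.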

Additional observations from a re-analysis of the deposited data

Results flagged for a closer look

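In each fraction the 4 libraries of every member were examined for a library whose distance to its nearest neighbour took up most of the range of the fraction (above Dixon's 95% critical value). Among 80 such groups of 4, 3 were found, and chance gives about 1 in 20, or 4.0 groups.

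Ppp1r15b in mature library 4 was the highest of its fraction, with a gap of 0.899 of the range (102 CPM beside 56.5 to 61.1 CPM). Aldh1l2 in LP library 2 was the highest of its fraction, with a gap of 0.866 of the range (5.75 CPM beside 0.871 to 1.53 CPM). Atf6b in LP library 1 was the highest of its fraction, with a gap of 0.941 of the range (18.6 CPM beside 11.1 to 11.5 CPM), and without that library its log2 fold change (LP over mature) stayed called. The cause of these gaps was not tested.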

How the results depend on the processing

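Of 16 alternatives, 8 used all libraries and 8 left out 1 library. Of the 634 values of single members under them, 593 kept direction and side of the threshold. The 10 called members other than Eif2ak1 and Ppp1r15b kept their call in every alternative in which they were tested; under a floor of 10 counts per library Atf6b and Vldlr were not tested, and 2 members were then called higher in LP. Eif2ak1 and Ppp1r15b lost the call with the replicate block (adjusted p = 0.063 and 0.056), and 1 gene of the eIF2 arm was then called; over the fits without 1 library that count was 1 to 3 (1 without LP library 1, 3 or 4). Over those fits 7 to 9 members were higher in mature cells and 3 to 4 in LP, and 2338 to 3414 genes were called of all tested. Calls were gained by Chac1 under that floor (adjusted p = 0.0268), Herpud1 with the replicate block (0.0144), Edem1 and Trib3 without mature library 4 (0.0262 and 0.0398) and Shmt2 without mature library 2 (0.045). In the fits with the replicate block, 8 members were higher in mature cells and 3 in LP, and 3027 genes were called. Same-numbered libraries correlated by 0.0618 to 0.148 in their deviations, with 2 of 4 pairs over 0.1. The highest correlation between different numbers was 0.0779, and 7 of 8 libraries correlated best with their own number. What a shared number marks is not stated, so the main fit did not pair the libraries. These values do not settle whether the libraries are paired.

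Members that changed sign were never called. The log2 fold change (LP over mature) of Psph was 0.0058 with RLE factors, 0.0278 with upper-quartile factors, 0.0079 with DESeq2, 0.0568 with no filter and 0.0087 with a floor of 10 counts per library. With the replicate block it was 0.0321 for Aldh1l2 and 0.3816 for Hyou1. Without 1 library it ranged from -0.0836 to 0.1003 for Psph, -1.0369 to 0.7223 for Aldh1l2, -0.5629 to 0.2790 for Hyou1, -0.2637 to 0.0619 for Atf6, -0.1134 to 0.7683 for Creld2, -0.4590 to 0.1208 for Pdia4, -0.4493 to 0.0231 for Calr and -0.3249 to 0.0846 for Sel1l. The cause was not tested. Other scalings moved the median of all genes by at most 0.03.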
